A study of Mus musculus with 2 samples.

Results

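The 8 genes described here, Ccr7, Fscn1, Ccl22, Ccl17, Il12b, Il4i1, Socs2 and Cacnb3, are switched on when dendritic cells mature, and they were chosen by symbol from the 32285 genes counted. All 8 were found in both of the 2 single-cell libraries, which hold CD45-sorted leukocytes from subcutaneous tumours of wild-type BALB/c mice carrying MFC cells, a mouse forestomach carcinoma line. In the thonzonium bromide library the mice had received this cationic surfactant at 50 mg/kg every other day, beginning on day 6, and were killed on day 10. The control library came from tumour-bearing mice of the same strain and genotype given PBS. The labels do not say how many mice were pooled, and with 1 library per group the treatment and the library cannot be told apart. Differences below are therefore given with no test and no replicates, and every 95% interval covers counting error only.

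Dendritic cells take up antigen in tissue, and on activation they lose their uptake machinery, raise co-stimulatory molecules and travel through lymph to the draining node. The chemokine receptor Ccr7 guides that journey towards Ccl19 and Ccl21, and the actin-bundling protein fascin, encoded by Fscn1, shapes the protrusions of the moving cell. Mature dendritic cells in tumours also release Ccl22 and Ccl17, which attract Ccr4-bearing T cells, and Il12b, the p40 subunit shared by interleukin-12 and interleukin-23. They carry Il4i1, a secreted enzyme that oxidises aromatic amino acids, Socs2, an inhibitor of cytokine signalling, and Cacnb3, a beta subunit of voltage-gated calcium channels.

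All 8 are protein-coding genes, and their positions are given on GRCm38, the mm10 build that the submitters' notes name, from the GENCODE M21 annotation. Ccr7 (ENSMUSG00000037944) lies at chr11:99144196-99155077 on the minus strand, Fscn1 (ENSMUSG00000029581) at chr5:142960343-142973185 on the plus strand, and Il12b (ENSMUSG00000004296) at chr11:44400063-44414033 on the plus strand. The chemokine genes Ccl22 (ENSMUSG00000031779, chr8:94745590-94751699) and Ccl17 (ENSMUSG00000031780, chr8:94810453-94812036) both lie on the plus strand of that chromosome. Il4i1 (ENSMUSG00000074141) spans chr7:44816387-44840809 on the plus strand, Socs2 (ENSMUSG00000020027) spans chr10:95385362-95417180 on the minus strand, and Cacnb3 (ENSMUSG00000003352) spans chr15:98630840-98644529 on the plus strand. Il4i1 shares 14426 bases with Nup62 on its own strand, and 272 and 6187 bases with Atf5 and Tbc1d17 on the other strand, so a read there may not be assigned to 1 gene with certainty.

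Promoter sequences of RefSeq on GRCm38.p6 were matched for 6 of the 8 genes. They are shown for the motility gene, the chemokine pair and the cytokine subunit because the levels of these 4 in migratory dendritic cells are described most closely below, and each runs 5′ to 3′ on the plus strand up to the annotated transcript. Capitals mark the letters TATAA on either strand.
Fscn1, chr5:142960105-142960342: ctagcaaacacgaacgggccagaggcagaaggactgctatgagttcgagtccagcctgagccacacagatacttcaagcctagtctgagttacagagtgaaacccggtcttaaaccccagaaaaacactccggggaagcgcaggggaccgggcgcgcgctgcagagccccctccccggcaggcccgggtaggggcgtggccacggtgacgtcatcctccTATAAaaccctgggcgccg
Ccl22, chr8:94745434-94745589: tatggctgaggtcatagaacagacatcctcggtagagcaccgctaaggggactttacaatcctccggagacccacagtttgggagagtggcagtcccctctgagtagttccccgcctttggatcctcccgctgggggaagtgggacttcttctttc
Ccl17, chr8:94810203-94810452: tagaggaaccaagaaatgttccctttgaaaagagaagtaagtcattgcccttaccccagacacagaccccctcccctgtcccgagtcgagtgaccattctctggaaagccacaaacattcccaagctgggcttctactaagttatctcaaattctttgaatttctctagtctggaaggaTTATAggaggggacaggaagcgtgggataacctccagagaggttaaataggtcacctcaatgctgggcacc
Il12b, chr11:44399813-44400062: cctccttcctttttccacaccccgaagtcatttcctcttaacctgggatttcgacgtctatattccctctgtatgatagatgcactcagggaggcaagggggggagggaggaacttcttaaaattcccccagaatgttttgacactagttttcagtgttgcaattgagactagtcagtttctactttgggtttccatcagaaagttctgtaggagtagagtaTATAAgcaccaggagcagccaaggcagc
The Fscn1 and Il12b matches begin 31 and 28 bases before the RefSeq start on the plus strand, and the Ccl17 match lies on the minus strand with its first printed letter 71 bases before the start. TATAA was found in 3 of the 7 windows of 300 bases (250 before and 50 after a start) that cover these 6 genes, with 2 windows for Cacnb3, and in 24.9% of all 32851 such windows. The NF-kappaB consensus, searched on both strands, was in none of the 7 windows and in 4.51% of all. The missing match says only that these letters are not in these windows.

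The deposited counts held 52973138 unique molecular identifiers (UMIs, which count captured transcripts) over 6724 barcodes in the thonzonium bromide library and 46348444 over 7803 barcodes in the control library. After removal of barcodes under 200 genes or over 20% mitochondrial UMIs, 5833 thonzonium bromide and 6419 control cells remained, with medians of 7259 and 4300 UMIs. Haemoglobin genes took 3.09% of thonzonium bromide and 9.79% of control UMIs, and 14 barcode sequences occur in both libraries. Cells were assigned by raw UMIs of marker genes, and 980 thonzonium bromide and 661 control cells met more than 1 gate and were set aside, while 777 and 2323 met none. T cells numbered 861 and 1223, B cells 479 and 207, monocytes 1133 and 492, macrophages 287 and 137, and dendritic cells with Cd209a, a lectin of a type 2 dendritic lineage, 77 and 75. Trac was found in 86.4% of thonzonium bromide and 74.7% of control T cells, and Adgre1 in 66.2% of thonzonium bromide and 50.4% of control macrophages. A level is given as CPM, the UMIs of a gene per 1000000 UMIs of its gate. The 3′ kit counts transcript ends, so no length correction was made.

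Migratory dendritic cells were gated by at least 1 UMI of Ccr7 and of Fscn1 and at least 10 UMIs of antigen-presentation genes (H2-Aa, H2-Ab1, H2-Eb1 and Cd74, here called class II). The levels of Ccr7 and Fscn1 in them therefore describe the gate, and only the other 6 genes were free to vary. The gate held 33 of 5833 thonzonium bromide cells (0.566%, exact binomial interval 0.390 to 0.794) and 22 of 6419 control cells (0.343%, 0.215 to 0.518). The ratio of these shares was 1.65, with an interval of 0.934 to 2.97 that includes 1. Without the class II minimum, an alternative added after seeing the data, the gate held 40 and 37 cells, or 0.576% of control cells. The ratio was then 1.19 (0.742 to 1.91). Flt3, the receptor for the dendritic cell growth factor, was found in 24 of 33 thonzonium bromide and 14 of 22 control migratory cells, and the dendritic transcription factor Zbtb46 in 15 and 9. Cells that also met another gate had been set aside, 16 of them in thonzonium bromide and 6 in control. Of these, 13 and 2 met the T cell gate and 8 and 5 the B cell gate, and a cell could meet several. A gate of at least 3 UMIs of Rhox5 and Cald1 together was met by 11 and 1. The natural killer cell gate was met by 6 in thonzonium bromide. Low counts of the markers of those gates in the cells kept therefore follow from the gating and say nothing of their identity. In the Cd209a gate Flt3 was found in 41 of 77 thonzonium bromide and 28 of 75 control cells, but so was Lyz2, a gene of monocytes and macrophages, in 55 and 40 cells. The part of such transcripts in the comparison of the 2 dendritic gates was not tested.

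The 6 genes outside the gate were many-fold higher in migratory than in Cd209a dendritic cells of the same library, with Ccl17 resting on few counts. Ccl22 stood at 2450 CPM in migratory and 1.99 CPM in Cd209a cells of the thonzonium bromide library, and at 2095 and 1.17 CPM in the control library. Il12b and Cacnb3 had no UMI in any Cd209a cell, and their folds were taken against a floor of 3 counts in that gate. Il12b was 418-fold higher (lower limit 338) in migratory cells of the thonzonium bromide library and 306-fold (lower limit 247) in those of the control. Cacnb3 was 246-fold (lower limit 198) and 192-fold (lower limit 153) higher. Socs2 was 163-fold (74.0 to 447) and 70.6-fold (38.4 to 144) higher, and Il4i1 68.0-fold (39.9 to 126) and 34.7-fold (21.4 to 59.4). Ccl17, with 26 thonzonium bromide and 3 control UMIs in migratory cells, was 79.8-fold higher (13.1 to 3274) in the thonzonium bromide library, and no fold is given for its 3 counts against 0 in the control library.

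The 5 genes other than Ccl17 were at least 2-fold higher in migratory cells in each library, and this held under each of 10 alternative settings. Of all genes with at least 50 UMIs over both gates, 13.8% of 3665 in the thonzonium bromide library and 12.9% of 3043 in the control library were at least 2-fold higher, and 26% and 28.2% were at least 2-fold lower. Among the 6, Ccl17 did not reach 50 UMIs. The other 5 passed largely through their high gate, so their count is a description.

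**Figure D1:**
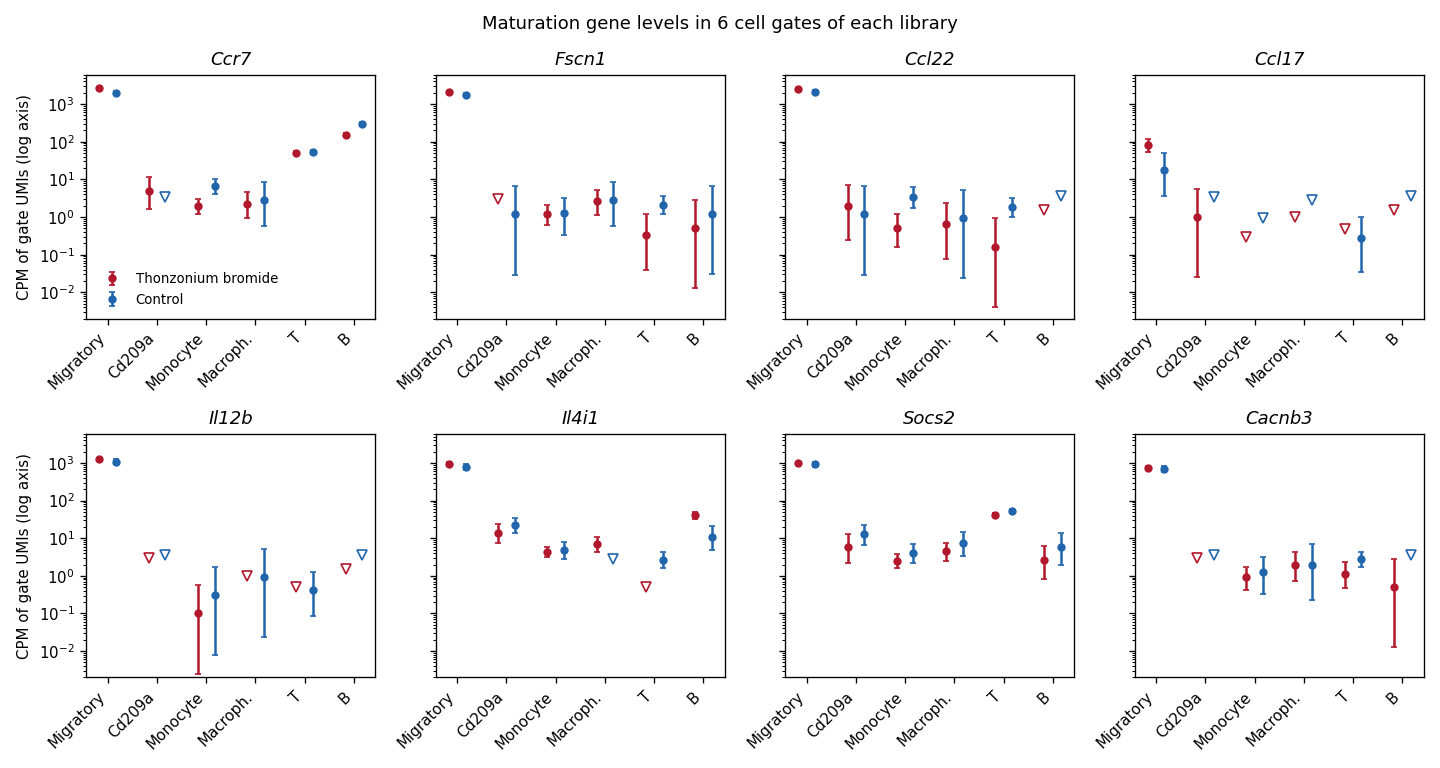
Level of each gene in CPM of the gate's UMIs (log axis) in 6 cell gates, thonzonium bromide in red and control in blue, with exact Poisson 95% intervals. Open triangles mark the level that 3 counts would give where none was found. All 8 genes have their highest level in migratory dendritic cells, which for Ccr7 and Fscn1 follows in part from the gate.

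Ccr7, the homing receptor, had 864 UMIs in the 33 thonzonium bromide migratory cells (lowest cell 1, median 23, highest 72) and 339 in the 22 control cells (1, 14 and 84). This is 2646 CPM in thonzonium bromide and 1951 CPM in control cells. It was also carried by lymphocytes, as is known for naive T and B cells. B cells came next, at 150.6 CPM in thonzonium bromide and 290.1 CPM in control cells, then T cells at 50.7 and 53.2 CPM. The other 3 gates were all under 7 CPM. Macrophages had 2.28 CPM in thonzonium bromide and 2.84 CPM in control, and monocytes 2.01 and 6.52 CPM. Cd209a dendritic cells had 5 UMIs, all in 1 cell, in thonzonium bromide and 0 in control.

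Fscn1, the actin bundler, had 691 UMIs in thonzonium bromide migratory cells (1, 17 and 82 in the lowest, median and highest cell) and 309 in control cells (1, 12 and 38). This is 2116 and 1778 CPM. Unlike Ccr7 it was near 0 in lymphocytes, with 2 UMIs in 861 thonzonium bromide T cells and 15 in 1223 control T cells. Another source was barcodes rich in Rhox5 and Cald1, which were not assigned a cell type here. These held 73 Fscn1 UMIs in 23 thonzonium bromide barcodes and 559 in 82 control barcodes, or 123 and 154 CPM. They held 5.32% of all Fscn1 UMIs in thonzonium bromide and 44.4% in control, and migratory cells 50.3% and 24.5%. Cells of more than 1 gate held 23.7% in thonzonium bromide and 19.7% in control.

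The chemokine Ccl22 was found in 26 of 33 thonzonium bromide and 17 of 22 control migratory cells, with 800 and 364 UMIs. Its spread over cells was wide. The median cell had 4 UMIs in thonzonium bromide and 8 in control, while the highest cell had 347 and 125, which is 43.4% and 34.3% of all Ccl22 UMIs of the gate. In T cells, taken as background, Ccl22 was found in 1 of 861 thonzonium bromide and 11 of 1223 control cells (0.116% and 0.899%, median depths 5995 and 4583 UMIs).

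Ccl17, a ligand of the same receptor, was rare. It was found in 4 of 33 thonzonium bromide cells and 2 of 22 control cells, with 26 and 3 UMIs. A single thonzonium bromide cell held 20 of the 26, and that cell also had 148 UMIs of Ccl22. Ccl17 was at 79.6 CPM (52.0 to 117) in thonzonium bromide and 17.3 CPM (3.56 to 50.5) in control migratory cells.

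Il12b was present in a minority of migratory cells, and its level differed widely among them. It was found in 11 of 33 thonzonium bromide cells (33.3%, 18.0 to 51.8) and 8 of 22 control cells (36.4%, 17.2 to 59.3), with 408 and 187 UMIs. The highest cell had 153 UMIs in thonzonium bromide and 103 in control, or 37.5% and 55.1% of the total. The 4 highest cells held 87.5% in thonzonium bromide, and the 3 highest held 86.6% in control. The other 5 gates held 1 Il12b UMI in thonzonium bromide (monocytes) and 5 in control (3 in T cells, 1 in monocytes, 1 in macrophages).

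Il4i1, Socs2 and Cacnb3 were spread far more evenly over the migratory cells. Il4i1 was found in 32 of 33 thonzonium bromide cells and 19 of 22 control cells, with a highest cell of 36 and 24 UMIs. Socs2 was found in 32 of 33 and 18 of 22 cells, with a highest cell of 24 and 21 UMIs. Cacnb3 was found in 29 of 33 and 20 of 22 cells, with a highest cell of 21 and 13 UMIs. No single cell held more than 17.9% of the UMIs of any of these 3.

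**Figure D2:**
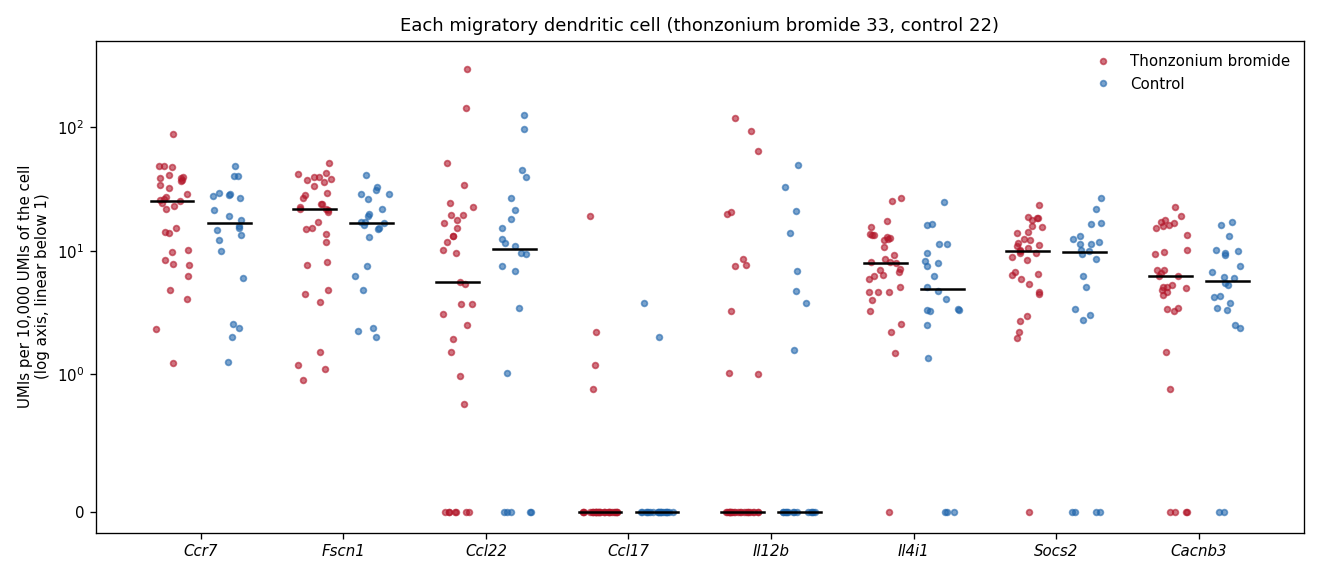
UMIs of each gene per 10000 UMIs of the cell (axis logarithmic above 1 and linear below) in each of the 33 thonzonium bromide (red) and 22 control (blue) migratory dendritic cells, with black lines at the medians. For Il4i1, Socs2 and Cacnb3 most cells form 1 band of values and a few lie at 0. Most cells lie at 0 for Ccl17 and Il12b, and a few lie near 100 for Il12b and above it for Ccl22.

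Most migratory cells had several of the genes. Ccl22, Il4i1, Socs2 and Cacnb3 were each found in most of these cells, and co-detection beyond these single rates was not tested. Of the 6 genes outside the gate, at least 4 were found in 26 of 33 thonzonium bromide and 17 of 22 control cells, and all 6 in 2 and 1. Among Cd209a cells, where all 8 genes were looked for, 65 of 77 thonzonium bromide and 66 of 75 control cells had none of them, and no cell in either library had 3 or more. With each cell thinned to 1000 UMIs, at least 4 of the 6 were found in 5 of 33 thonzonium bromide and 5 of 22 control migratory cells.

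Migratory cells with and without Il12b had close levels of Ccr7. It was at 2592 CPM in the 11 thonzonium bromide cells with Il12b and 2678 CPM in the 22 without, and at 1955 CPM in the 8 control cells with it and 1947 CPM in the 14 without. Ccl22 stood at 4481 CPM with Il12b against 1234 CPM without it in thonzonium bromide, and at 2735 against 1570 CPM in control, but a few cells set this direction. The highest cells with Il12b held 347 and 148 of 548 Ccl22 UMIs in thonzonium bromide and 125 of 214 in control. Without the 2 highest cells of each part, an alternative added after seeing the data, Ccl22 was at 530 against 879 CPM in thonzonium bromide and 653 against 868 CPM in control. It was found in 8 of 11 against 18 of 22 thonzonium bromide cells and 6 of 8 against 11 of 14 control cells. Ccl17 lay nearly all in the same cells, with 24 of its 26 UMIs in thonzonium bromide, 20 of them in 1 cell, and 3 of 3 in control. Cacnb3 was at 556 CPM (432 to 705) with Il12b against 842 CPM (721 to 978) without it in thonzonium bromide. In control it was at 601 CPM (441 to 799) against 733 CPM (571 to 926), with intervals that overlap. It was found in 10 of 11 against 19 of 22 thonzonium bromide cells and in 8 of 8 against 12 of 14 control cells. Cells with Il12b were deeper, with median totals of 11157 against 8879 UMIs in thonzonium bromide and 8970 against 6576 in control, and the part of depth in finding it was not tested.

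Between the libraries, 5 of the 6 genes outside the gate had ratios of 1.07 to 1.23 in migratory cells. The CPM ratio of thonzonium bromide to control was 1.17 for Ccl22 (1.03 to 1.33), 1.16 for Il12b (0.974 to 1.39), 1.23 for Il4i1 (1.00 to 1.52), 1.07 for Socs2 (0.882 to 1.30) and 1.09 for Cacnb3 (0.872 to 1.37). For the gate genes it was 1.36 for Ccr7 and 1.19 for Fscn1. None of the 7 genes with at least 50 UMIs was 1.5-fold higher or lower, where 9.68% of 1508 genes were at least 1.5-fold higher and 9.42% lower. Their median log2 ratio was 0.23, and 0.22 for the 5 of them outside the gate, against 0.01 over the 1508 genes.

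Ccl17 alone had a ratio over 1.5 among the 8 in this gate, at 4.61 (1.41 to 23.8), and it had under 50 UMIs. With cells of more than 1 gate kept, the Ccl17 ratio was 1.03. Without the cell with most UMIs in each library, the Ccl22 ratio was 0.986 and the Il12b ratio 1.48. Il12b was also at 0.619 (0.506 to 0.760) with doubled gate minimums, 2.53 (1.24 to 5.70) thinned to 1000 UMIs and 2.62 (2.04 to 3.40) without the 5% deepest cells, so no direction is drawn from its ratio. The gate built without any of the 8 genes, on at least 4 of 10 other maturation genes, held 61 thonzonium bromide and 42 control cells, including 32 of the 33 and 20 of the 22 migratory cells. There Ccl22 was at 1319 and 1567 CPM, a ratio of 0.842 (0.761 to 0.932), the Ccl17 ratio was 1.52 (0.794 to 3.07), and Ccr7, free to vary in that gate, was at 1492 and 1248 CPM.

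**Figure D3:**
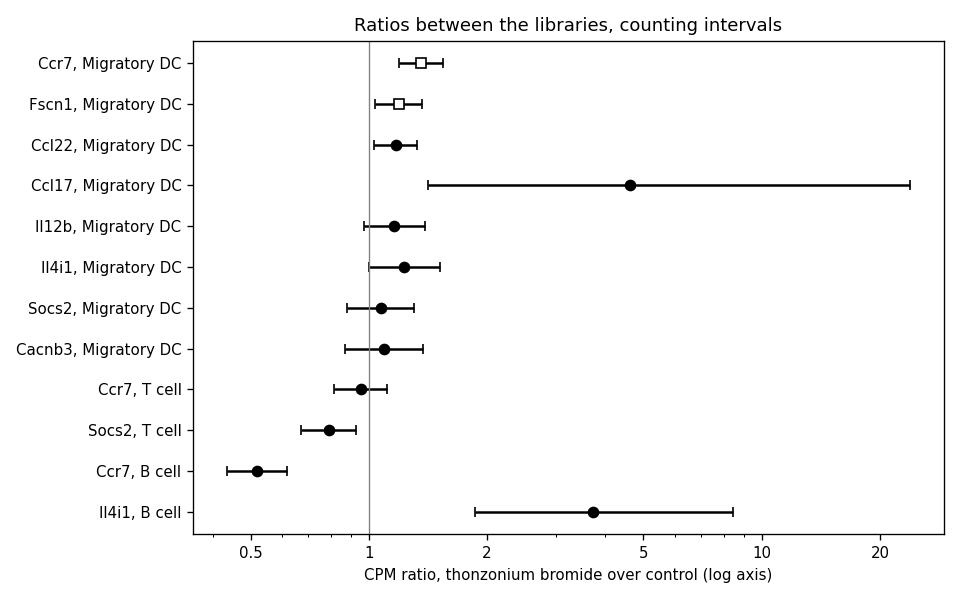
CPM ratio of thonzonium bromide to control (log axis) for the 8 genes in migratory dendritic cells and for the genes with most UMIs in T and B cells, with exact 95% counting intervals. Open squares are Ccr7 and Fscn1, which define the migratory gate; Ccr7 and Il4i1 in B cells lie farthest from 1 among the ratios that rest on at least 50 UMIs.

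Many cells with several of the 8 genes lay outside the gates. At least 4 of the 8 genes were found in 60 thonzonium bromide and 59 control cells, of which 33 and 21 were in the migratory gate, 15 and 29 in no gate and 8 and 4 in more than 1 gate. Of those in no gate, 9 thonzonium bromide and 19 control cells had under 10 class II UMIs. Ccr7 and Fscn1 count among the 8 genes, and each migratory cell had both by the rule of its gate. The migratory part of the 60 and 59 cells therefore follows in part from the gating. The migratory gate held 81.4% of thonzonium bromide and 54.7% of control Il12b UMIs, and 79.2% and 41.8% of Ccl22 UMIs. Control cells in no gate held 425 Ccl22 UMIs, 238 of them in 1 cell, and 148 Il12b UMIs. The 8 genes had 0 to 11 UMIs each in the 891 thonzonium bromide barcodes that the filters removed and 0 to 16 in the 1384 control barcodes.

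**Figure D4:**
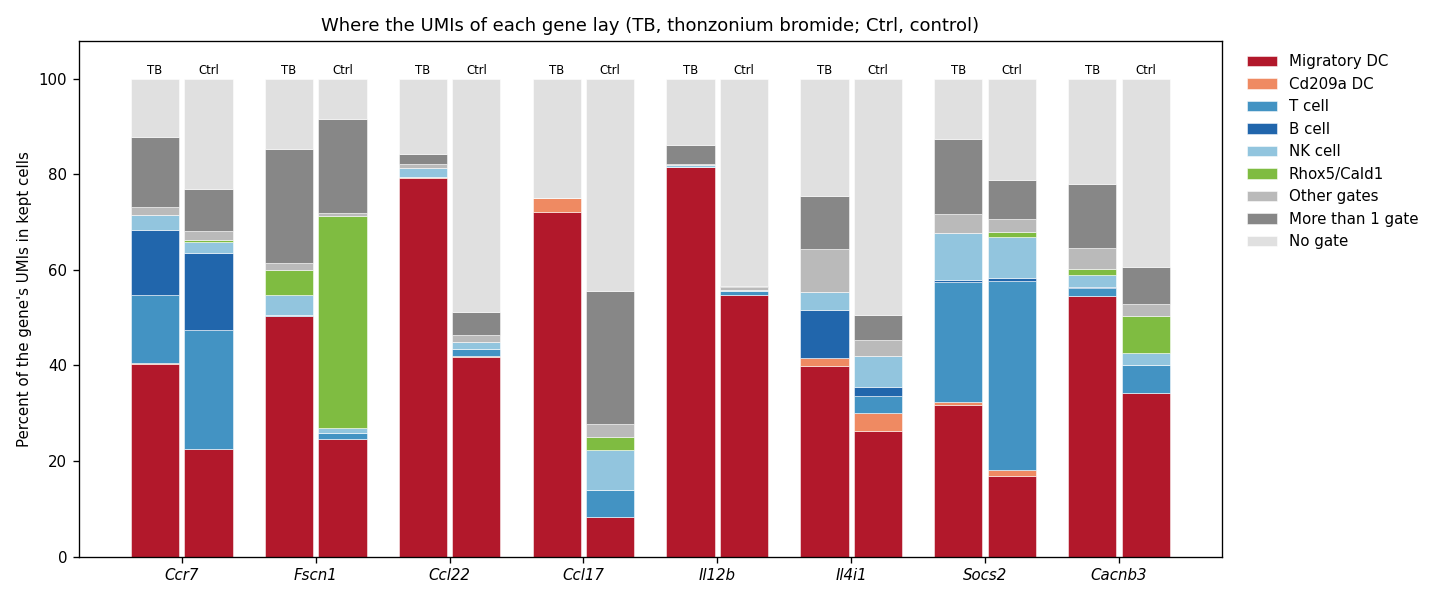
Percent of each gene's UMIs in kept cells that lay in each gate, in cells of more than 1 gate and in no gate, with the thonzonium bromide bar left of the control bar. Migratory cells hold 81.4% of thonzonium bromide and 54.7% of control Il12b UMIs, and the Rhox5/Cald1 barcodes 44.4% of control Fscn1 UMIs.

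Class II transcripts were low in the migratory cells. Their median was 45.9 UMIs per 10000 in thonzonium bromide and 44.3 in control migratory cells, against 373 and 303 in Cd209a cells. The level ranged from 10.2 to 518 and from 13.7 to 463 in migratory cells. Both gates ask for at least 10 class II UMIs, so the low ends and the close migratory medians follow in part from the gating. Without that minimum the migratory medians were 37.8 in thonzonium bromide (40 cells) and 26.0 in control (37 cells), with lowest values of 2.31 and 0. A split at 200 per 10000, chosen after the values were seen, gave 9 thonzonium bromide and 5 control cells above it. In thonzonium bromide these 9 had less Fscn1 (706 against 2731 CPM in the other 24), Cacnb3 (232 against 954 CPM) and Ccl22 (484 against 3307 CPM), and 2420 against 2744 CPM of Ccr7. The 5 control cells above the split had 1693 against 1803 CPM of Fscn1 and 615 against 690 CPM of Cacnb3. Their Ccl22 was at 1436 against 2285 CPM, or 1257 against 1466 CPM without the highest cell of each part, and all 5 had it. In thonzonium bromide the same omission gave 316 against 1878 CPM. Il12b was at 2359 against 765 CPM in thonzonium bromide and 308 against 1298 CPM in control. Ccr7 was at 821 against 2278 CPM in the control cells. Flt3 was in 3 of the 9 thonzonium bromide cells against 21 of 24 (30.2 against 317 CPM). In control it was in 2 of 5 against 12 of 17 (154 against 304 CPM). In thonzonium bromide Serpinb6b was at 181 against 1645 CPM and Cd63 at 403 against 1583 CPM. In control these were at 1154 against 1462 CPM and 1923 against 1373 CPM. Relb was at 948 against 902 CPM in thonzonium bromide and 641 against 645 CPM in control. The identity of the cells above the split was not tested.

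In B cells Ccr7 was lower and Il4i1 higher in the thonzonium bromide library. Ccr7 was found in 181 of 479 thonzonium bromide B cells (37.8%, 33.4 to 42.3) and in 110 of 207 control B cells (53.1%, 46.1 to 60.1). Its level of 150.6 against 290.1 CPM is a ratio of 0.519 (0.436 to 0.618). Thinned to 1000 UMIs, 15.7% of thonzonium bromide and 26.3% of control B cells had it. The median depth was 3680 UMIs in thonzonium bromide and 3868 UMIs in control B cells.

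Il4i1 had 78 UMIs in 57 thonzonium bromide B cells (11.9%, 9.14 to 15.1) and 9 UMIs in 8 control B cells (3.86%, 1.68 to 7.47). This is 40.2 CPM in thonzonium bromide and 10.8 CPM in control, a ratio of 3.73 (1.87 to 8.46). No B cell held more than 5 of these UMIs. Natural killer (NK) cells, taken as background for Il4i1, had it in 1.41% and 1.86% of cells. Both B cell ratios kept their side of 1 under all 9 alternatives, at 0.499 to 0.601 for Ccr7 and 2.86 to 4.48 for Il4i1. Over all 5641 genes measured in B cells, 5.5% were at least 1.5-fold higher and 10.1% lower. Of the 8 genes, the 2 with at least 50 UMIs in B cells fell 1 in each of these classes.

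In T cells Ccr7 and Socs2 were the members with at least 50 UMIs, and neither passed 1.5-fold, where 2.24% of 9744 genes were higher and 5.15% lower. Socs2 was at 41.4 CPM in thonzonium bromide and 52.4 CPM in control, a ratio of 0.790 (0.670 to 0.929). T cells were divided by their Foxp3, Cd4 and Cd8 UMIs after values were seen. Cells with Foxp3, the factor of regulatory T cells, held 38.1% of T cell Socs2 UMIs in thonzonium bromide and 56.4% in control. They had 158 CPM in thonzonium bromide (121 cells) and 184 CPM in control (256 cells), and they made up 14.1% of thonzonium bromide and 20.9% of control T cells. T cells with Cd8a or Cd8b1 but neither Cd4 nor Foxp3 had 22.7 CPM of Socs2 in thonzonium bromide (84 UMIs, 437 cells) and 9.05 CPM in control (33 UMIs, 439 cells), a ratio of 2.51 (1.66 to 3.87). T cells with Cd4 but neither Cd8 nor Foxp3 had 42.9 CPM (14 UMIs, 73 cells) and 156 CPM (81 UMIs, 126 cells), a ratio of 0.275 (0.144 to 0.488). The Cd4 cells had median totals of 4103 UMIs in thonzonium bromide and 4202 in control, and how many of them lacked a Foxp3 UMI through depth was not tested.

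T cells with Cd8 held 65.0% of the T cell UMIs of Ccr7 in thonzonium bromide and 71.7% in control. They made up 50.8% and 35.9% of T cells and were deep, with median totals of 7541 and 7388 UMIs. In them Ccr7 was at 54.3 CPM (64 of 437 cells) in thonzonium bromide and 73.8 CPM (113 of 439 cells) in control, a ratio of 0.736 (0.610 to 0.887). T cells with Cd4 but neither Cd8 nor Foxp3 had 82.8 CPM (19 of 73 cells) in thonzonium bromide and 57.9 CPM (20 of 126 cells) in control. That ratio was 1.43, with an interval of 0.818 to 2.49 that includes 1. Foxp3 cells had 37.8 and 12.4 CPM of Ccr7 from 5 cells in each library, and 1 thonzonium bromide cell held 16 of the 23 UMIs.

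Monocytes and macrophages, as gated here, carried almost none of the 8 genes. A cell that met the migratory or Cd209a gate was not counted as a monocyte, so the low monocyte levels follow in part from the gating. Of the gate built without the 8 genes, 15 of 61 thonzonium bromide and 5 of 42 control cells lay in the monocyte gate. Il12b had 1 UMI in 1133 thonzonium bromide and 1 in 492 control monocytes. Il4i1 had 21 UMIs in thonzonium bromide macrophages and 0 in control. Against a floor of 3 counts this is a ratio of 2.41, with a lower limit of 1.79. Of the 21 UMIs 15 were in 1 cell, so no direction is drawn from this ratio. No member exceeded the 7.57 CPM of Socs2 in control macrophages in either cell type. Il4i1 in monocytes (44 UMIs in thonzonium bromide, 16 in control, 4.42 and 4.97 CPM) was the 1 member with at least 50 UMIs there and was not called, where 3.05% of 8972 genes were at least 1.5-fold higher and 6.58% lower. In macrophages, with a background of 7.31% higher and 4.54% lower, and in Cd209a cells, with 5.9% and 6.02%, no member reached 50 UMIs over the libraries.

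Of 8 partner genes of these products, the ligands, receptors and subunits that act with them, 6 had no UMI in migratory cells. Il12a, whose p35 pairs with p40 to make interleukin-12, and Il23a, whose p19 makes interleukin-23, had no UMI in any migratory cell, with exact 95% upper limits of 11.3 CPM in thonzonium bromide and 21.2 CPM in control. Il12a was found in B cells, with 61 UMIs in thonzonium bromide (31.5 CPM) and 38 in control (45.6 CPM), and in plasmacytoid dendritic cells with 6 and 16 UMIs. Il23a was highest in neutrophils, at 45.5 CPM (25 UMIs) and 30.0 CPM (9 UMIs). Ebi3, the partner of p28 in interleukin-27, had 53 thonzonium bromide and 18 control UMIs in migratory cells, from 7 cells in each.

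The receptor chains for interleukin-12 were on NK and T cells. Il12rb2 was at 86.7 CPM in thonzonium bromide and 67.1 CPM in control NK cells, and at 36.1 and 50.1 CPM in T cells. It was also found in 12 of 33 and 6 of 22 migratory cells (70.4 and 57.5 CPM). Il12rb1 was at 52.0 and 60.4 CPM in NK cells and at 39.7 and 34.6 CPM in T cells, with no UMI in migratory cells. Ccr4, the receptor for Ccl22 and Ccl17, had 23 UMIs in thonzonium bromide and 29 in control T cells, of which Foxp3 cells held 13 and 18. The Ccr7 ligands Ccl19 and Ccl21a, whose near-identical gene copies were summed, had no UMI in migratory cells.

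A list of 33 further maturation genes was set beside the 8. Of its 29 members with at least 50 UMIs in the thonzonium bromide library, 25 were at least 2-fold higher in migratory than in Cd209a cells, 1 was lower and 3 were neither. In the control library 23 of 27 were higher, 1 was lower and 3 were neither. Over all genes 13.8% in thonzonium bromide and 12.9% in control were higher, and 26% and 28.2% lower. List genes that reached 50 UMIs mainly through the migratory gate had to be higher, so these counts and medians are descriptions. The median log2 ratio was 3.96 in thonzonium bromide and 3.61 in control, against -0.26 and -0.31 over all genes. Genes with the highest ratios were the tetraspanin Cd63 (1225 against 1.00 CPM in thonzonium bromide, 1496 against 5.85 CPM in control), the inhibitory ligand Cd200 (756 against 1.00 CPM, 725 against 1.17 CPM), the interleukin-2 receptor chain Il2ra (294 against 1.00 CPM, 328 against 12.9 CPM) and the serpin Serpinb6b (1200 against 4.99 CPM, 1393 against 7.02 CPM). In control the annexin Anxa3 (455 against 4.68 CPM) stood among the highest 4 in place of Il2ra.

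The lowest were the cytokine signalling inhibitor Socs3, at 0.366-fold in thonzonium bromide and 0.299-fold in control, Nfkb1 at 0.791- and 0.826-fold, the inhibitor Socs1 at 1.23- and 0.888-fold, and the co-stimulatory ligand Cd86 at 1.72- and 1.75-fold. Socs2, of the same family as Socs3, was 163-fold and 70.6-fold higher in the same comparison.

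**Figure D5:**
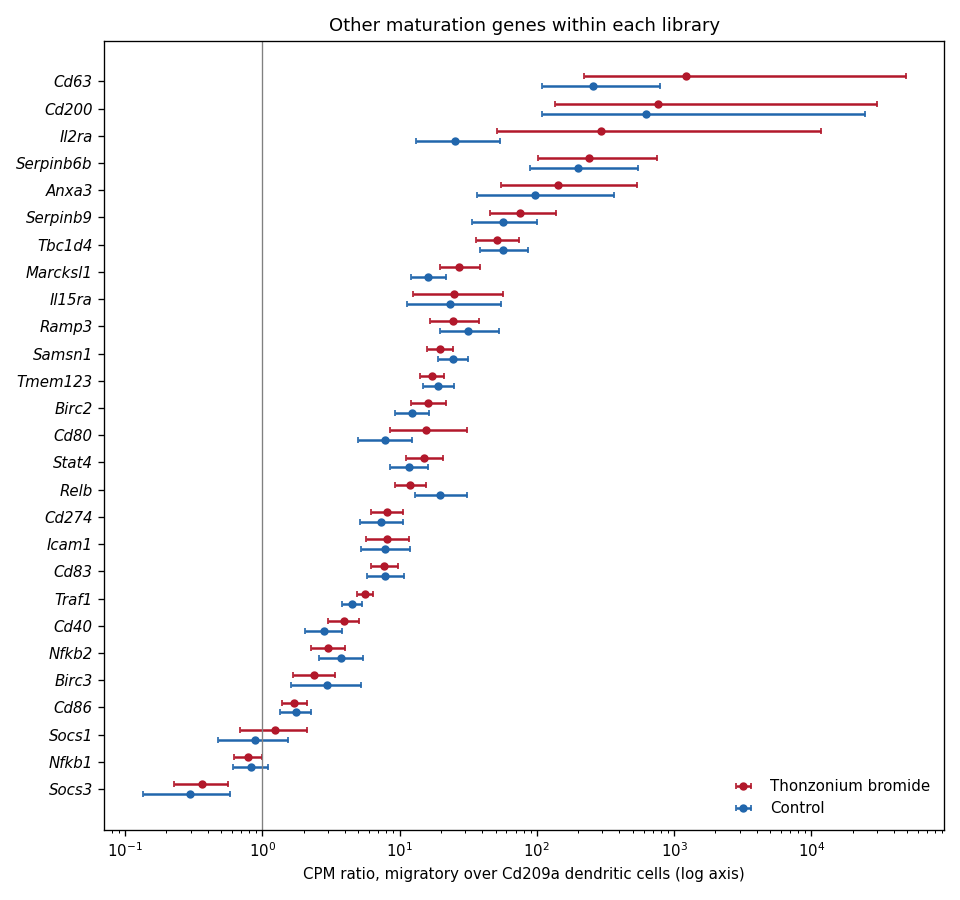
CPM ratio of migratory to Cd209a dendritic cells (log axis) for the 27 list genes with at least 50 UMIs in both libraries, thonzonium bromide in red above control in blue, with exact 95% counting intervals. From Cd63 at the top to Birc3 the ratios exceed 2 in both libraries, and Socs3 at the bottom is below 1 in both.

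Between the libraries, 2 of the 29 list genes measured in migratory cells were at least 1.5-fold higher in thonzonium bromide and 2 lower, where the background was 9.68% and 9.42%. The highest were Nudt17, at 263 against 144 CPM (1.83, 1.16 to 2.98), Birc3, at 190 against 121 CPM (1.57, 0.944 to 2.71), the NF-kappaB subunit Relb, at 916 against 644 CPM (1.42, 1.14 to 1.78), and Pdcd1lg2, at 193 against 138 CPM (1.40, 0.860 to 2.34). The lowest were the uptake receptor Ly75, at 126 against 236 CPM (0.532, 0.337 to 0.841), the co-stimulatory ligand Cd80, at 202 against 311 CPM (0.650, 0.447 to 0.950), Cd63 (0.819) and Il15 (0.851).

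The genes whose levels followed the 6 most closely were ranked by Pearson r of log2(CPM + 1) with their mean, over the 6 gates in 2 libraries, which is 12 points that share libraries and depth. Of 9167 genes with at least 200 UMIs, Poglut1 (0.984), Map4k4 (0.983), Gm13546 (0.982), Tmem39a (0.981) and Relb (0.976) came first, followed by Smarce1, Atmin, Uap1, Gypc and Nhlrc2 (0.967). A high r does not mean that a gene was confined to migratory cells. Smarce1 was at 309 CPM in thonzonium bromide and 276 CPM in control migratory cells, against up to 109 CPM in another gate. Gm13546 was at 328 and 610 CPM, against up to 1.20 CPM. Of the 8 themselves, each against the mean of the 6 without it, Il12b had 0.990, Ccl22 0.987, Fscn1 0.985, Cacnb3 0.971 and Ccl17 0.968. Socs2 (0.886), Il4i1 (0.818) and Ccr7 (0.751), which lymphocytes also carry, followed them less closely. Fscn1 and Ccr7 define the migratory gate, where the 6 genes are highest, so the r of these 2 follows in part from the gating.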

How the data were processed

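Per the file headers, Cell Ranger 6.1.2 wrote the deposited matrices, whose values are raw UMI counts of genes in barcodes. Seurat 3.0, R 3.5.3 and mm10 are listed in the submitters' processing notes, and per the labels the libraries used a 10x 3′ kit. Other settings are not given in the sources used here. The lowest barcode totals, 501 UMIs in thonzonium bromide and 500 in control, show a lower bound set before deposit. Counts were summed per gate and library in Python 3.11.15 (NumPy 2.4.6, SciPy 1.17.1, pandas 2.3.3) and divided by the gate total, with exact Poisson 95% intervals, exact conditional binomial intervals for ratios and Clopper-Pearson intervals for shares.

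Gates used raw marker UMIs: Cd3d, Cd3e and Cd3g at least 2 together (T), Cd79a and Ms4a1 at least 2 (B), Ncr1 and Klrb1c at least 2 (NK), C1qa, C1qb and C1qc at least 10 (macrophage), Ly6c2, Vcan, Chil3 and F13a1 at least 3 with Lyz2 (monocyte), and Cd209a with 10 class II UMIs. Cells of the migratory or Cd209a gate were left out of the monocyte gate, and migratory cells out of the Cd209a gate. No doublet caller was run, and no cell types by clustering were used. Calls needed at least 50 UMIs, and 1.5-fold between libraries or 2-fold between gates. Ratios needed 20 UMIs. A count of 0 was set at a floor of 3 counts. The 8 genes, the gates and the lists were chosen with earlier results of these data known. Named list genes are the 4 highest and 4 lowest ratios, and the partner genes with a level. The alternatives were doubled gate minimums, a 10% mitochondrial limit, a 500-gene minimum, cells of more than 1 gate kept in a fixed order, cells scaled alike, thinning to 1000 UMIs, leaving out the 5% deepest cells or the cell with most UMIs of a gene, a migratory gate without the 8 genes or without the class II minimum, and totals without haemoglobin, mitochondrial and ribosomal genes. The interval and fold code was tested on simulated counts.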

Additional observations from a re-analysis of the deposited data

Results flagged for a closer look

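The ratio of thonzonium bromide to control for Ccr7 went in opposite directions in different cells, with counting intervals that exclude 1 on both sides when all cells are counted. These differences were not tested. It was 1.82 in NK cells (67 UMIs in thonzonium bromide, 36 in control), 0.308 in monocytes (20 and 21 UMIs) and 0.519 in B cells (292 and 242 UMIs). Without the cell with most Ccr7 in each library the ratio was 1.56 in NK cells, with an interval of 0.984 to 2.51 that includes 1, 0.147 in monocytes and 0.518 in B cells. Ccr7 was found in 29 NK cells of each library, and 15 of the 20 thonzonium bromide monocyte UMIs were in 1 cell.

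Among T cells the Ccr7 ratio was 3.05 in those with Foxp3 (23 and 14 UMIs) and 0.736 in those with Cd8 (201 and 269 UMIs). Of the 23 UMIs in thonzonium bromide Foxp3 cells, 16 were in 1 cell. The Socs2 ratio was 2.51 in T cells with Cd8 and 0.275 in those with Cd4 and no Foxp3 UMI, and no T cell in these groups held more than 6 Socs2 UMIs.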

How the results depend on the processing

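Alternatives gave 170 values, of which 145 stayed within the counting interval of the reported value (for counts, within 1.5 times), 22 moved beyond it, and 3 crossed 1 from a ratio whose interval excludes 1. Of 110 alternative ratios between the libraries, 10 in all lay on the other side of 1 and 8 moved by over 1.5 times, also where the reported interval is wide. The cause of a move was not tested. Ccl22 in migratory cells (1.17) reversed to 0.884 with cells of more than 1 gate kept, 0.842 with the gate without members and 0.986 without the highest cell, and reached 1.55 with doubled gate minimums. Il12b (1.16) was 0.619 with doubled minimums, 0.955 with cells of more than 1 gate kept, 1.71 with cells scaled alike, 2.53 thinned to 1000 UMIs, 2.62 without the 5% deepest cells and 1.48 without the highest cell. Ccl17 (4.61) was 1.03 with cells of more than 1 gate kept and 1.52 with the gate without members, and Socs2 (1.07) was 1.54 thinned. With cells of more than 1 gate kept, Socs2 was 0.953 and Cacnb3 (1.09) 0.922. The number of the 6 genes at least 1.5-fold higher, with no minimum of UMIs, was 1. It was 2 with doubled minimums, cells scaled alike, thinning or without the 5% deepest cells, and 0 with cells of more than 1 gate kept. The number lower was 0, and 1 with doubled minimums. Il4i1 in Cd209a cells (0.628, on 14 thonzonium bromide and 19 control UMIs) was 4.84 with doubled minimums and 1.28 without the highest cell, and Ccr7 in T cells (0.953) was 0.774 thinned and 1.05 with cells scaled alike. The migratory share of thonzonium bromide cells (0.566%) was 0.840% with cells of more than 1 gate kept and 1.05% with the gate without members, and that of control cells (0.343%) was 0.171% with doubled minimums, 0.654% with the gate without members and 0.576% without the class II minimum. The 33 and 22 migratory cells, and the few cells that hold most Ccl22 and Il12b, limit every value in that gate. The alternatives that drop the class II minimum or the highest cell, and those for T and B cells, were added after seeing the data. No paired analysis was possible because each group is 1 library, and for the same reason no replicate could be left out.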
